A study of Mus musculus with 33 samples.

Results

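The 10 genes described here encode proteins of the specific granules of neutrophils, or neutrophil proteins made with them: Ltf, Camp, Ngp, Lcn2, Cd177, Pglyrp1, Lrg1, Itgb2l, Chil3 and Olfm4. They were chosen by name and found by symbol among the 54752 features of the deposited count table. All 10 passed the filter on low counts, and 7 had counts in every library. The study followed the separation of the neutrophil and monocyte paths in mouse bone marrow and the state of the neutrophil path in sepsis, by bulk RNA sequencing of sorted cells. It has 33 libraries in 11 groups of 3 biological replicates. The 4 sepsis groups held Ly6C- granulocyte-monocyte progenitors (Ly6C- GMP) and the stages called proNeu1, proNeu2 and preNeu of the neutrophil path, taken from mice 3 days after mid-grade CLP (caecal ligation and puncture, an operation that lets gut bacteria into the abdomen). The 7 control groups came from mice described as WT controls: the same 4 populations and, on the monocyte path, cMoP (a common progenitor of monocytes), TpMo (a transitional stage before the monocyte) and Ly6Chi monocytes. Strain, age, sex, any sham operation and the number of mice behind a library are not given in the sources used here, and neither are the surface markers of the gates.

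Neutrophils fill their granules in order while they mature in the bone marrow. Azurophil (primary) granules, with myeloperoxidase and elastase, are made first, at the promyelocyte stage. Specific (secondary) granules follow at the myelocyte and metamyelocyte stages, and their genes depend on the transcription factor C/EBP epsilon. Among the genes here, Ltf encodes lactoferrin, which binds iron. Camp encodes the antimicrobial peptide cathelicidin, and Ngp encodes neutrophilic granule protein, a relative of cathelicidins and cystatins. Lcn2 encodes lipocalin 2, which captures bacterial siderophores and is also an acute-phase protein. Cd177 is a surface protein stored in granules, and Itgb2l encodes a protein like the integrin beta 2 chain. Pglyrp1 binds bacterial peptidoglycan, Lrg1 encodes a secreted leucine-rich glycoprotein of the acute phase, Chil3 (Ym1) encodes a chitinase-like protein also made by macrophages, and Olfm4 (olfactomedin 4) marks a subset of neutrophils.

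Camp, Ngp and Ltf lie near each other on chromosome 9 of GRCm38: Camp (chr9:109847379-109849617, minus strand), Ngp (chr9:110419747-110423012, plus strand) and Ltf (chr9:111019271-111042767, plus strand). The gaps are 570.13 kb from Camp to Ngp and 596.259 kb from Ngp to Ltf, and 51 other annotated genes lie in the span. Of the 25 of these that were tested, 3 were called higher and 3 lower in preNeu than in proNeu2. This is near the share of all tested genes, of which 13.1% were called higher and 14.7% lower. The 3 granule genes were all higher there. The other genes are Lcn2 (chr2:32384633-32388252, minus), Cd177 (chr7:24743983-24760311, minus), Pglyrp1 (chr7:18871331-18890459, plus), Lrg1 (chr17:56119678-56122001, minus), Itgb2l (chr16:96422288-96443619, minus), Chil3 (chr3:106147554-106167564, minus) and Olfm4 (chr14:79984081-80023139, plus).

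The promoters of 4 of the genes are printed because these genes stand at the ends of the pattern described below: Ltf and Ngp were lower in septic proNeu1, and Lcn2 and Lrg1 were higher in septic Ly6C- GMP. Each is the RefSeq window (GRCm38.p6) from 250 bases before to 50 bases after the start site, written 5′ to 3′ on the gene's strand, at chr9:111019042-111019341 (plus), chr9:110419558-110419857 (plus), chr2:32387690-32387989 (minus) and chr17:56121897-56122196 (minus). Capitals mark the letters TTGCNNAA (a C/EBP half-consensus pattern) and AGGAAG (an ETS core, the class of PU.1) on either strand.
Ltf: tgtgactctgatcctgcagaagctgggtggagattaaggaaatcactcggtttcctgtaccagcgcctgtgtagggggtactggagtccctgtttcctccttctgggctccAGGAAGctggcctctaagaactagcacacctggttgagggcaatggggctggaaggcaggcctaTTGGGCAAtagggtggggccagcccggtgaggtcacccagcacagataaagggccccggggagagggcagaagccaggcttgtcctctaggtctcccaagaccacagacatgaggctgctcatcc
Ngp: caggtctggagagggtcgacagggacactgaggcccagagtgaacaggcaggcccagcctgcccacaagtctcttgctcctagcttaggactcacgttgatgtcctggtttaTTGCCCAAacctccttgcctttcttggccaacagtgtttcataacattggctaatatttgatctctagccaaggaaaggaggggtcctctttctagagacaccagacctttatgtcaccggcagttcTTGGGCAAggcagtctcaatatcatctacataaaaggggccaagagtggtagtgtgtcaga
Lcn2: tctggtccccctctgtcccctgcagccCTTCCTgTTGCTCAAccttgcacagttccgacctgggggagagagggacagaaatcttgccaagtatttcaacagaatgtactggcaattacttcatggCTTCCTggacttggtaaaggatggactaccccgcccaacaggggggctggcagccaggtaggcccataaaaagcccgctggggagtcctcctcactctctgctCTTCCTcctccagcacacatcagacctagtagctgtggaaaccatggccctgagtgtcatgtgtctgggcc
Lrg1: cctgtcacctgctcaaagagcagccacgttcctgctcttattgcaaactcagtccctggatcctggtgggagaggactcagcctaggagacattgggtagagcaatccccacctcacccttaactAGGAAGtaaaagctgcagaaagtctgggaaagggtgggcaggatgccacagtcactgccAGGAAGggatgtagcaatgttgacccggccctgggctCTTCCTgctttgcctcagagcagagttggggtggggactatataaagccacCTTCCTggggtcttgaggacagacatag
The C/EBP letters start at base -75 of Ltf, at -138 and -11 of Ngp and at -216 of Lcn2. They occurred in 3 of the 10 promoters, against 10.8% of 32851 RefSeq mouse promoters of the same length. The ETS letters occurred in 8 of the 10, Lrg1 with 4 copies, against 35.4% of all promoters. The STAT pattern TTCNNNGAA occurred in Chil3 alone of the 10, against 8.3% of all. In Lcn2 an ETS match ends next to the C/EBP match without overlapping it. These are matches of letters and not measured binding sites.

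Levels are given as CPM, each count divided by the library's total after TMM scaling and put on the usual per-megacount scale, and levels of different genes are compared only as CPM per kb of exon. Totals were 5.52 to 40 megacounts per library. Replicate 1 of septic proNeu1, replicate 3 of septic preNeu, replicate 1 of control proNeu1, replicate 3 of control preNeu and replicate 2 of the Ly6Chi monocytes were shallow, with at most 6.78 megacounts against at least 17.2 in the others. Replicates correlated at 0.972 to 0.992 (Pearson, log2 CPM). The summed monocyte markers, 10 genes such as Csf1r and Ccr2, lay at 8137 to 8595 CPM in cMoP, and at 1768 to 2698 CPM in proNeu1. The summed stem and progenitor markers, 8 genes such as Cd34 and Kit, were highest in control Ly6C- GMP, at 1020.1 to 1254 CPM. The 9 monocyte-path libraries had Xist at 1.23 CPM or less, and the other 24 had 155 CPM or more, and Ddx3y, on the Y chromosome, was high where Xist was low. Comparisons that set monocyte-path libraries against the others also set mice of different sex against each other, and the parts of both cannot be told apart. The Chil3 transcript aligns with that of Chil4 over 1540 bases at 94.3% identity, and Chil4 counts were 0.458% to 1.81% of Chil3 counts in every library. Cd177 and Gm4763 share 303 bases at 96% identity, Olfm4 shares 154 exon bases with Gm6999, and the span of Itgb2l overlaps Igsf5 on the other strand with no exon bases in common. How reads that match several genes were counted is not given in the sources used here, so Chil3, Cd177 and Olfm4 are uncertain to that extent.

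**Figure D1:**
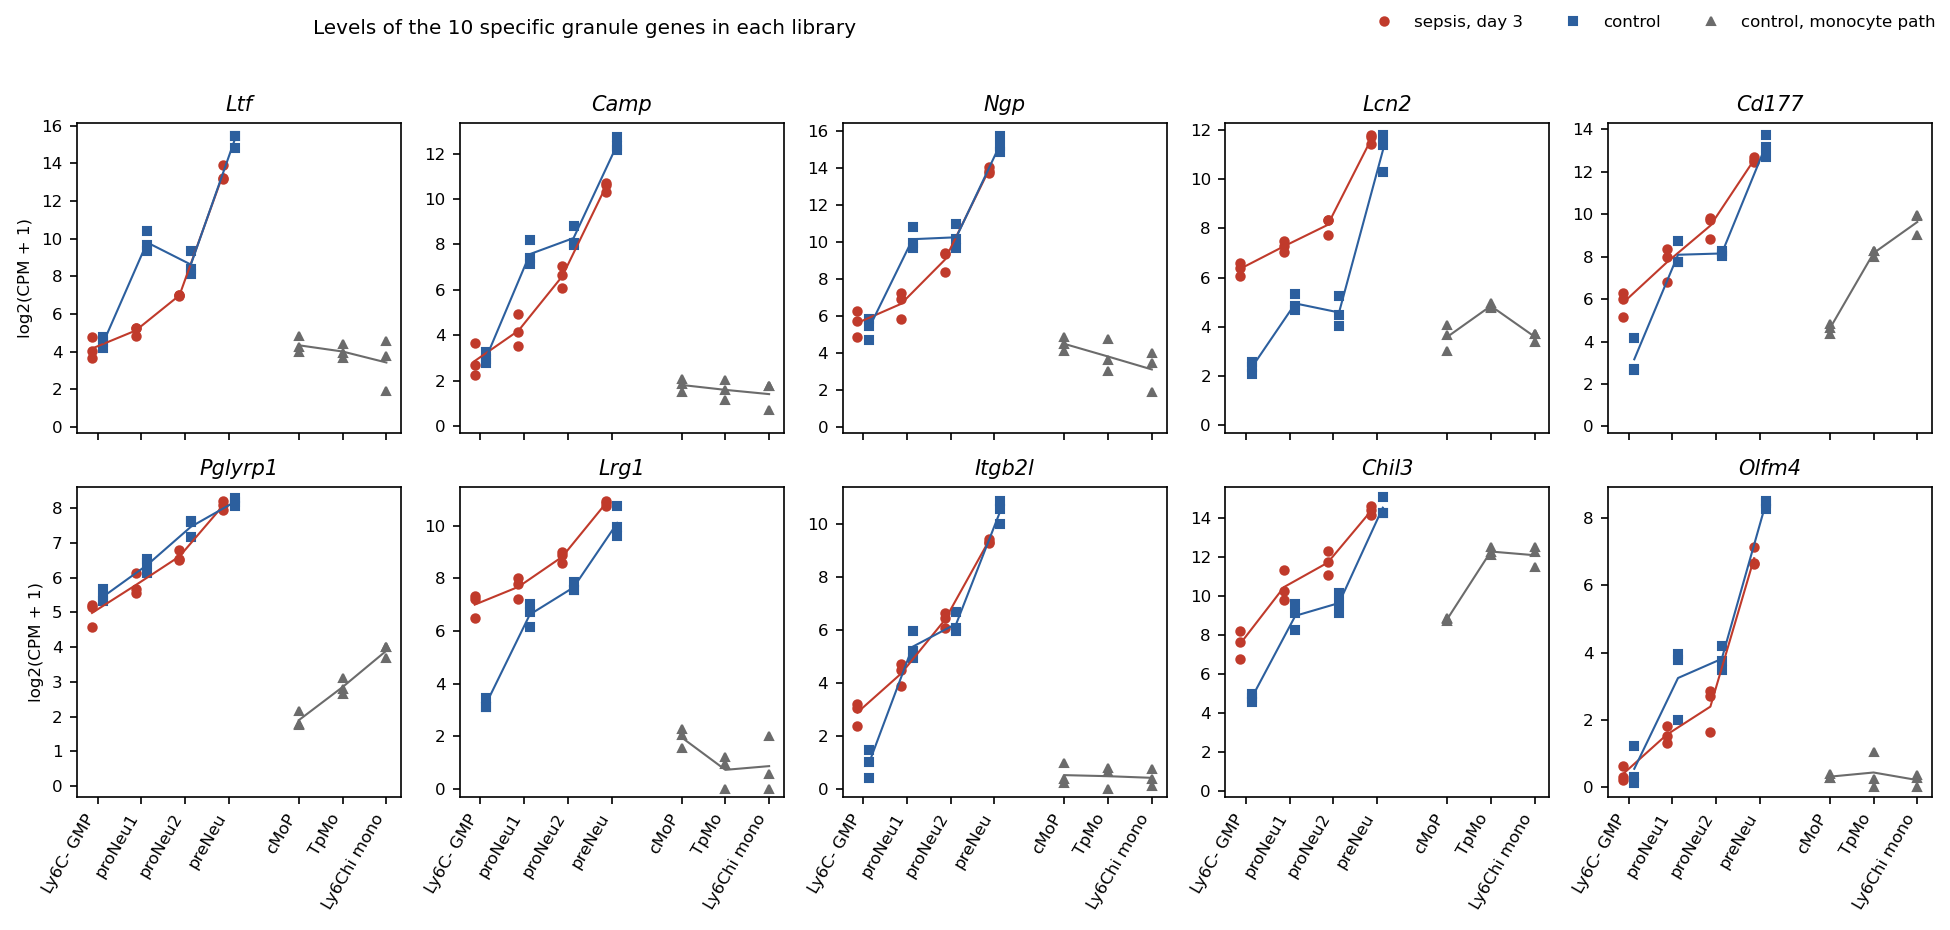
Level of each of the 10 genes in every library as log2(CPM + 1), one panel per gene, with 3 points per group and lines through the group means. Along the neutrophil path all 10 genes have their highest control value in preNeu. Sepsis points (red) lie above the control points (blue) at the first stage for Lcn2, Lrg1, Cd177, Itgb2l and Chil3, and below them at proNeu1 for Ltf, Camp and Ngp. Of the monocyte-path groups (grey), TpMo and Ly6Chi monocytes have high Chil3 and Cd177.

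Together the 10 genes took 0.0622 ± 0.0214% of all counts in septic and 0.0188 ± 0.00237% in control Ly6C- GMP (mean ± SD, n = 3 each). The share was 0.242 ± 0.115% in septic and 0.364 ± 0.149% in control proNeu1, 0.579 ± 0.187% in septic and 0.360 ± 0.130% in control proNeu2, and 5.45 ± 0.377% in septic and 10.5 ± 1.57% in control preNeu. All 3 septic preNeu libraries, at 5.10% to 5.85%, lay below the 3 control preNeu libraries, at 8.72% to 11.7%. On the monocyte path the share was 0.0596 ± 0.000993% in cMoP, 0.524 ± 0.0731% in TpMo and 0.526 ± 0.161% in the Ly6Chi monocytes. In a bulk sample, fewer cells of a type and less RNA per cell cannot be told apart.

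The first comparison asked what changes when Ly6C- GMP become proNeu1. All 10 genes were higher in proNeu1, where 3.59% of the 18198 tested genes were called higher and 2.45% lower, at an adjusted p under 0.05 (edgeR quasi-likelihood test, Benjamini-Hochberg over all tested genes). Their median log2 fold change was 4.58, against 0.00 over all tested genes. Ltf was at 1357, 649 and 803 CPM in the proNeu1 libraries, against 26.3, 17.2 and 22.3 CPM in Ly6C- GMP. The groups did not overlap, and the rise was 42.7-fold (log2 fold change 5.42 ± 0.50, adjusted p = 1.39e-08). Camp was at 290.3, 141 and 166 CPM in proNeu1, against 5.89, 8.67 and 6.80 CPM in Ly6C- GMP (log2 fold change 4.80 ± 0.44, adjusted p = 1.37e-08). Ngp averaged 1203 ± 532 CPM in proNeu1 and 41.4 ± 15.6 CPM in Ly6C- GMP (SD, n = 3 each; log2 fold change 4.86 ± 0.56, adjusted p = 6.24e-07). In each of these 3 genes the shallow proNeu1 replicate 1 was the highest of the 3 proNeu1 libraries. Lcn2 rose less, to 39.8, 24.7 and 27.5 CPM, against 4.19, 4.90 and 3.26 CPM in Ly6C- GMP (log2 fold change 2.87 ± 0.34, adjusted p = 8.84e-07).

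Of the surface proteins, Itgb2l averaged 42.0 ± 16.7 CPM in proNeu1 and 1.02 ± 0.717 CPM in Ly6C- GMP (log2 fold change 5.34 ± 0.48, adjusted p = 1.01e-08). Cd177 averaged 287 ± 124 CPM in proNeu1 and 9.15 ± 6.53 CPM in Ly6C- GMP (log2 fold change 4.97 ± 0.46, adjusted p = 1.39e-08). Without Ly6C- GMP replicate 1, the highest of its group, the log2 fold change of Cd177 was 5.73, and without replicate 3 that of Itgb2l was 5.94. Chil3 and Lrg1, which encode secreted proteins, rose with log2 fold changes of 4.36 ± 0.43 for Chil3 and 3.57 ± 0.46 for Lrg1 (adjusted p = 4.35e-08 and 4.75e-06). Olfm4, also secreted, had 93, 82 and 606 counts in proNeu1, against 2, 6 and 33 counts in Ly6C- GMP (log2 fold change 4.22 ± 0.67, adjusted p = 8.66e-05). Its size rests on Ly6C- GMP replicate 3, without which the log2 fold change was 6.0, and it was called in every alternative. Pglyrp1 changed least, at 92.0, 83.9 and 69.5 CPM in proNeu1, against 39.1, 40.5 and 49.8 CPM in Ly6C- GMP (log2 fold change 0.92 ± 0.18, adjusted p = 0.00149). Its call did not hold against a fold change of 1.5 (adjusted p = 0.208). The summed B lineage markers, 8 genes led by Ighm, Igkc and Jchain, were at 3458 to 6364 CPM in proNeu1 and 803 to 993 CPM in Ly6C- GMP, with Pax5 and Ebf1 under 1 CPM on average in both. Of the 7 tested, 1 was called higher, while Ly6C- GMP had the higher markers of eosinophils, basophils and mast cells, at 99.2 to 156 CPM in proNeu1 and 11678 to 17271 CPM in Ly6C- GMP, with 8 of 8 lower in proNeu1. The stem and progenitor markers were lower for 3 of 8. Mature neutrophil markers, 12 genes such as Ly6g, summed to 768 to 1173 CPM in proNeu1 and 232 to 352 CPM in Ly6C- GMP. Of these, 6 were higher and 0 lower. The part of these cells in the result was not tested.

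Between proNeu2 and proNeu1 only Pglyrp1 of the 10 genes was called, higher in proNeu2, where 1.57% of all genes were called higher and 1.48% lower. It was at 197, 193 and 141 CPM in proNeu2, against 92.0, 83.9 and 69.5 CPM in proNeu1 (log2 fold change 1.12 ± 0.18, adjusted p = 0.000775). Ltf was at 653, 281 and 334 CPM in proNeu2, against 1357, 649 and 803 CPM in proNeu1, with 1 library of proNeu2 inside the proNeu1 range (log2 fold change -1.15 ± 0.42, adjusted p = 0.142, not called). Ngp averaged 1308 ± 616 CPM in proNeu2 and 1203 ± 532 CPM in proNeu1 (0.12 ± 0.47, adjusted p = 0.973). Cd177 averaged 284 ± 21.7 CPM in proNeu2 and 287 ± 124 CPM in proNeu1 (-0.01 ± 0.39). The median log2 difference over the 10 was 0.52. The 9 genes that were not called are not shown to be equal, since Lrg1 differed by 1.01 ± 0.41 with no overlap between the groups (adjusted p = 0.198).

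The next stage is preNeu. All 10 genes were higher in preNeu than in proNeu2, where 13.1% of all genes were called higher and 14.7% lower. The median log2 fold change was 4.78, against 0.00 over all tested genes. Lcn2 was at 1239, 3542 and 2701 CPM in preNeu, against 36.8, 21.2 and 15.5 CPM in proNeu2, a 102-fold rise (log2 fold change 6.67 ± 0.38, adjusted p = 2.49e-13). Of the 3 preNeu libraries, replicate 1 had the lowest Lcn2 and the highest Ngp, Cd177, Lrg1 and Itgb2l. Ltf was at 44824, 44341 and 28742 CPM in preNeu, against 653, 281 and 334 CPM in proNeu2, a 93.0-fold rise (log2 fold change 6.54 ± 0.53, adjusted p = 2.57e-10). Ngp reached 53772, 37104 and 29586 CPM, against 1993, 1128 and 801 CPM in proNeu2 (log2 fold change 4.94 ± 0.56, adjusted p = 8.01e-08). Camp averaged 5521 ± 1177 CPM in preNeu and 322 ± 114 CPM in proNeu2 (log2 fold change 4.10 ± 0.42, adjusted p = 1.6e-08). Mature neutrophil markers summed to 6031 to 14245 CPM in preNeu and 1300 to 1591 CPM in proNeu2, with 8 of 12 higher and 0 lower. The part of mature neutrophils in the result was not tested.

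Cd177 averaged 9791 ± 3536 CPM in preNeu and 284 ± 21.7 CPM in proNeu2, with a log2 fold change of 5.11 ± 0.46. Chil3 averaged 24475 ± 8363 CPM in preNeu and 828 ± 287 CPM in proNeu2, with a log2 fold change of 4.89 ± 0.44. Those of Olfm4, Itgb2l and Lrg1 were 4.68 ± 0.59, 4.25 ± 0.41 and 2.53 ± 0.43. Pglyrp1 again changed least, at 309, 290.3 and 266 CPM in preNeu against 197, 193 and 141 CPM in proNeu2 (log2 fold change 0.70 ± 0.18, adjusted p = 0.00373), and its call did not hold against a fold change of 1.5 (adjusted p = 0.316). Per kb of exon, Ngp was the most abundant of the 10 in preNeu, at 32859 ± 10129.6 CPM per kb. Chil3 followed at 14997 ± 5125, Ltf at 11392 ± 2652 and Camp at 7284 ± 1553 CPM per kb. The lowest were Itgb2l at 334 ± 95.3, Pglyrp1 at 157 ± 11.7 and Olfm4 at 115 ± 9.40 CPM per kb.

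Other granule genes were read beside them from lists chosen by function. Of 27 tested genes of other specific, gelatinase and secretory granule proteins, 19 were higher in proNeu1 than in Ly6C- GMP, with a median log2 fold change of 1.28. At this step 3.59% of all genes were called higher and 2.45% lower. In preNeu against proNeu2, 22 were higher and 1 lower, with a median of 2.29, where 13.1% of all genes were called higher and 14.7% lower. Chil1, a chitinase-like protein of specific granules, was at 47.9 ± 17.3 CPM in proNeu1 and 2.11 ± 1.86 CPM in Ly6C- GMP (log2 fold change 4.47 ± 0.50, adjusted p = 4.3e-07). Fpr2, a formyl peptide receptor, averaged 29.5 ± 6.90 CPM in preNeu and 0.192 ± 0.332 CPM in proNeu2 (log2 fold change 7.19 ± 1.16, adjusted p = 2.53e-05). Its proNeu2 mean is near the level of 3 counts, 0.144 to 0.153 CPM in these libraries, so the size of this fold is uncertain. The azurophil genes went the other way at preNeu, with 2 of 10 tested higher and 7 lower, beside the same shares of all genes. Mpo, myeloperoxidase, averaged 9446 ± 3897 CPM in preNeu and 65281 ± 5291 CPM in proNeu2 (log2 fold change -2.79 ± 0.16, adjusted p = 4.65e-13). Ctsg, cathepsin G, averaged 313 ± 301 CPM in preNeu and 2139 ± 414 CPM in proNeu2 (log2 fold change -2.78 ± 0.38, adjusted p = 1.49e-06). Among the transcription factors, Cebpe averaged 195 ± 32.7, 238 ± 40.8, 492 ± 39.2 and 768 ± 392 CPM from Ly6C- GMP to preNeu, with no step of it called. Gfi1, a repressor needed for neutrophil formation, fell at preNeu to 30.8 ± 6.54 CPM, against 70.0 ± 16.7 CPM in proNeu2 (log2 fold change -1.19 ± 0.28, adjusted p = 0.00188).

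On the monocyte path the 10 genes separated. In cMoP against Ly6C- GMP, 3 were higher and 3 lower, where 9.21% of all genes were called higher and 7.96% lower. This comparison shares the Ly6C- GMP libraries with that of proNeu1. Chil3 was at 468, 415 and 450.3 CPM in cMoP, against 25.9, 30.0 and 22.9 CPM in Ly6C- GMP (log2 fold change 4.08 ± 0.43, adjusted p = 3.94e-08). Pglyrp1 was at 3.45, 2.37 and 2.48 CPM in cMoP, against 39.1, 40.5 and 49.8 CPM in Ly6C- GMP, 15.4-fold lower (log2 fold change -3.95 ± 0.22, adjusted p = 1.82e-13). Lcn2 rose to 11.7, 15.7 and 7.23 CPM in cMoP, against 4.19, 4.90 and 3.26 CPM in Ly6C- GMP (log2 fold change 1.49 ± 0.33, adjusted p = 0.0017). Smaller changes were called for Cd177 (higher, 1.37 ± 0.41, adjusted p = 0.02), Camp (lower, at 1.83, 3.23 and 2.58 CPM in cMoP against 5.89, 8.67 and 6.80 CPM in Ly6C- GMP, adjusted p = 0.0187) and Lrg1 (lower, -1.52 ± 0.48, 0.0269). The Camp call was lost without Ly6C- GMP replicate 2 (adjusted p = 0.0812), cMoP replicate 1 (adjusted p = 0.105) or cMoP replicate 3 (adjusted p = 0.0589). That of Cd177 was lost without Ly6C- GMP replicate 2 (adjusted p = 0.124), Ly6C- GMP replicate 3 (adjusted p = 0.13), cMoP replicate 2 (adjusted p = 0.0532) or cMoP replicate 3 (adjusted p = 0.0763). That of Lrg1 was lost without Ly6C- GMP replicate 2 (adjusted p = 0.0982), Ly6C- GMP replicate 3 (adjusted p = 0.0513), cMoP replicate 1 (adjusted p = 0.0761) or cMoP replicate 2 (adjusted p = 0.138). Ltf stayed at 14.9, 27.1 and 17.8 CPM in cMoP, against 26.3, 17.2 and 22.3 CPM in Ly6C- GMP, with overlapping libraries.

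In TpMo against cMoP, 4 of the genes were higher and 1 lower, where 9.52% of all genes were called higher and 8.56% lower. Chil3 was at 4867, 5789 and 4341 CPM in TpMo, against 468, 415 and 450.3 CPM in cMoP (log2 fold change 3.49 ± 0.41, adjusted p = 3.61e-07). Cd177 was at 252, 307 and 304 CPM in TpMo, against 19.7, 23.6 and 27.5 CPM in cMoP (log2 fold change 3.61 ± 0.43, adjusted p = 4.65e-07). Lcn2 and Pglyrp1 rose by 1.27 ± 0.31 and 1.17 ± 0.21 on the log2 scale (adjusted p = 0.00368 and 0.000143). Lrg1 fell to 22, 0 and 20 counts in the 3 TpMo libraries, against 86, 40 and 74 counts in cMoP (log2 fold change -2.03 ± 0.63, adjusted p = 0.0235). This call was lost without cMoP replicate 1 (adjusted p = 0.0646), cMoP replicate 3 (adjusted p = 0.0866) or TpMo replicate 2 (adjusted p = 0.143).

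In Ly6Chi monocytes against TpMo, 2 genes were higher and 1 lower, where 7.59% of all genes were called higher and 13.3% lower. Cd177 rose further, to 957, 995 and 522 CPM in monocytes, against 252, 307 and 304 CPM in TpMo (log2 fold change 1.52 ± 0.39, adjusted p = 0.00517). Pglyrp1 also rose (log2 fold change 1.14 ± 0.20, adjusted p = 7.21e-05), and Lcn2 fell (log2 fold change -1.33 ± 0.32, adjusted p = 0.00273). Chil3 was at 4818, 5912 and 2899 CPM in monocytes, against 4867, 5789 and 4341 CPM in TpMo, with overlapping libraries (adjusted p = 0.881). Itgb2l and Olfm4 were near the limit of detection, with 0 to 20 and 0 to 22 counts in each of the 9 monocyte-path libraries, and no fold is given for them.

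Set directly against cMoP, proNeu1 had 9 of the 10 genes higher, where 8.25% of all genes were called higher and 8.03% lower. The log2 fold changes of the genes other than Itgb2l and Olfm4 ran from 1.39 ± 0.31 for Lcn2 to 6.29 ± 0.49 for Camp, with 4.87 ± 0.22 for Pglyrp1. Itgb2l was at 60.9, 35.8 and 29.3 CPM in proNeu1 and 0.294, 0.950 and 0.155 CPM in cMoP, and Olfm4 at 12.8, 2.97 and 14.4 CPM in proNeu1 and 0.294, 0.190 and 0.207 CPM in cMoP. No fold is given for these, since their cMoP values rest on few counts. Chil3 was the exception, at 762, 548 and 306 CPM in proNeu1 and 468, 415 and 450.3 CPM in cMoP (log2 difference 0.28 ± 0.37, adjusted p = 0.706). The mice of these groups differed in sex, as described above.

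The 10 genes differed between septic and control cells in different directions, and the size of the difference and the genes called varied between stages. Only Itgb2l was called in both directions, higher in Ly6C- GMP and lower in preNeu. Its preNeu call was lost in 5 of 6 leave-one-out fits. In septic Ly6C- GMP, 5 genes were higher, where 10.3% of all genes were called higher and 7.42% lower. Lcn2 was at 66.2, 84.1 and 96.3 CPM in septic and 4.19, 4.90 and 3.26 CPM in control Ly6C- GMP, a 19.9-fold rise (log2 fold change 4.31 ± 0.35, adjusted p = 1.28e-09). Lrg1 was at 88.7, 159 and 146 CPM in septic and 7.67, 10.1 and 7.64 CPM in control Ly6C- GMP, a 15.5-fold rise (log2 fold change 3.95 ± 0.47, adjusted p = 6.55e-07). In both genes every septic library lay far above every control library. Chil3 was at 108, 296 and 199.9 CPM in septic and 25.9, 30.0 and 22.9 CPM in control Ly6C- GMP (log2 fold change 2.94 ± 0.40, adjusted p = 5.89e-06). Cd177 was at 34.9, 62.2 and 78.0 CPM in septic and 16.7, 5.47 and 5.29 CPM in control Ly6C- GMP (log2 fold change 2.68 ± 0.42, adjusted p = 3.55e-05). Itgb2l was at 4.21, 7.34 and 8.18 CPM in septic and 0.316, 0.995 and 1.75 CPM in control Ly6C- GMP (log2 fold change 2.69 ± 0.47, adjusted p = 0.000137). All 5 calls held in every leave-one-out fit. Without control replicate 1 the log2 fold change of Cd177 was 3.44, and without control replicate 3 that of Itgb2l was 3.29.

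The other 5 genes were not called in Ly6C- GMP. Ltf was at 11.8, 26.7 and 15.5 CPM in septic and 26.3, 17.2 and 22.3 CPM in control Ly6C- GMP (adjusted p = 0.731). Camp averaged 6.92 ± 4.10 CPM in septic and 7.12 ± 1.42 CPM in control cells, and Ngp averaged 52.5 ± 24.3 CPM in septic and 41.4 ± 15.6 CPM in control cells. Pglyrp1 was lower by a small amount that edgeR did not call (-0.47 ± 0.18, adjusted p = 0.0791) and DESeq2 did (adjusted p = 0.038). Markers of eosinophils, basophils and mast cells summed to 2497 to 5114 CPM in septic and 11678 to 17271 CPM in control Ly6C- GMP, with 1 of 8 higher and 4 lower, and all 8 detected in both. The B lineage markers summed to 39.3 to 83.8 CPM in septic and 803 to 993 CPM in control cells, with 4 of 7 lower, and the stem and progenitor markers to 497 to 621 CPM in septic and 1020.1 to 1254 CPM in control cells, with 2 of 8 lower. Of the monocyte markers 1 was higher and 4 of 10 were lower, and 3 of 8 erythroid markers were lower. Mature neutrophil markers summed to 456 to 528 CPM in septic and 232 to 352 CPM in control cells, with 3 of 12 higher and 0 lower. The part of these shifts in the result was not tested.

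In septic proNeu1, 2 of the genes were higher and 5 lower, where 8.3% of all genes were called higher and 7.3% lower. Ltf was at 27.9, 37.1 and 37.9 CPM in septic and 1357, 649 and 803 CPM in control proNeu1, 27.1-fold lower (log2 fold change -4.76 ± 0.49, adjusted p = 1.39e-07). Every septic library lay below every control library. Ngp was at 55.9, 152 and 118 CPM in septic and 1808, 806 and 995 CPM in control proNeu1 (log2 fold change -3.46 ± 0.52, adjusted p = 3.02e-05). Camp was at 10.6, 29.6 and 16.6 CPM in septic and 290.3, 141 and 166 CPM in control proNeu1 (log2 fold change -3.35 ± 0.41, adjusted p = 2.12e-06). These 3 calls held in every alternative fit, with log2 fold changes of -2.74 for Ngp and -2.73 for Camp without the 5 shallow libraries. Olfm4 was lower with few counts, at 1.49, 2.49 and 1.87 CPM in septic and 12.8, 2.97 and 14.4 CPM in control proNeu1 (log2 fold change -2.28 ± 0.60, adjusted p = 0.00858). Its call was lost without proNeu1 replicate 3 (adjusted p = 0.0706) and without the 5 shallow libraries (adjusted p = 0.108). Pglyrp1 was lower (log2 fold change -0.56 ± 0.18, adjusted p = 0.0346), a call lost without proNeu1 replicate 1 (adjusted p = 0.13), proNeu1 replicate 2 (adjusted p = 0.096), sepsis proNeu1 replicate 1 (adjusted p = 0.173) or sepsis proNeu1 replicate 3 (adjusted p = 0.145), and without the shallow libraries (adjusted p = 0.367).

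Lcn2 went the other way. It was at 131, 181 and 154 CPM in septic and 39.8, 24.7 and 27.5 CPM in control proNeu1 (log2 fold change 2.36 ± 0.31, adjusted p = 6.05e-06). Chil3 was at 887, 2581 and 1199 CPM in septic and 762, 548 and 306 CPM in control proNeu1 (log2 fold change 1.53 ± 0.38, adjusted p = 0.00583). Its call was lost without sepsis proNeu1 replicate 2 (adjusted p = 0.109), the highest septic library, with only the libraries compared (adjusted p = 0.0931) and against a fold change of 1.5 (adjusted p = 0.0592). Without the shallow libraries its log2 fold change was 2.15. Lrg1 averaged 209 ± 55.9 CPM in septic and 101 ± 29.8 CPM in control proNeu1 (1.06 ± 0.42, adjusted p = 0.0852). Cd177 averaged 232 ± 112 CPM in septic and 287 ± 124 CPM in control proNeu1 (adjusted p = 0.677), and Itgb2l 19.9 ± 5.74 CPM in septic and 42.0 ± 16.7 CPM in control proNeu1 (adjusted p = 0.0662). The summed B lineage markers were at 105 to 316 CPM in septic and 3458 to 6364 CPM in control proNeu1, with 3 of 7 tested lower, and Pax5 was at 0 in the septic libraries. The monocyte markers summed to 1680.3 to 1980.1 CPM in septic and 1768 to 2698 CPM in control proNeu1, with 1 of 10 higher and 6 lower. The stem and progenitor markers summed to 203 to 264 CPM in septic and 528 to 571 CPM in control proNeu1, with 4 of 8 lower, and the erythroid markers to 15.1 to 23.6 CPM in septic and 69.8 to 138 CPM in control proNeu1, with 4 of 8 lower. Markers of eosinophils, basophils and mast cells summed to 28.7 to 38.2 CPM in septic and 99.2 to 156 CPM in control proNeu1, with 3 of 8 lower. Mature neutrophil markers summed to 705 to 1087 CPM in septic and 768 to 1173 CPM in control proNeu1. Of these 12 genes 0 were higher and 4 lower, with a median log2 fold change of -0.58. The part of these cells in the result was not tested.

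In septic proNeu2, 3 genes were higher and 3 lower, where 9.45% of all genes were called higher and 7.57% lower. Lcn2 was at 214, 320.4 and 328 CPM in septic and 36.8, 21.2 and 15.5 CPM in control proNeu2, a 11.7-fold rise (log2 fold change 3.55 ± 0.33, adjusted p = 1.39e-08). Chil3 was at 2179.7, 5006 and 3417 CPM in septic and 1134, 783 and 566 CPM in control proNeu2 (log2 fold change 2.09 ± 0.39, adjusted p = 0.000285). Cd177 was at 451, 859 and 904 CPM in septic and 282, 263 and 306 CPM in control proNeu2 (log2 fold change 1.38 ± 0.39, adjusted p = 0.0136), a call lost without proNeu2 replicate 2 (adjusted p = 0.0677), sepsis proNeu2 replicate 2 (adjusted p = 0.0599) or sepsis proNeu2 replicate 3 (adjusted p = 0.0696). Ltf was at 129, 127 and 125 CPM in septic and 653, 281 and 334 CPM in control proNeu2 (log2 fold change -1.74 ± 0.43, adjusted p = 0.00453), a call lost without proNeu2 replicate 1 (adjusted p = 0.0521). Camp was at 66.9, 99.0 and 132 CPM in septic and 454, 265 and 248 CPM in control proNeu2 (log2 fold change -1.70 ± 0.38, adjusted p = 0.00208). Pglyrp1 was at 92.0, 89.1 and 110.1 CPM in septic and 197, 193 and 141 CPM in control proNeu2 (log2 fold change -0.87 ± 0.18, adjusted p = 0.0011). In these 3 genes every septic library was below every control library. Lrg1 (1.17 ± 0.41, adjusted p = 0.0504), Olfm4 (-1.53 ± 0.54, 0.0522) and Ngp (-1.24 ± 0.48, 0.0755) were near the threshold. Against a fold change of 1.5 the calls of Cd177 (adjusted p = 0.109) and Pglyrp1 (adjusted p = 0.195) were lost. Among markers of other cells, those of eosinophils, basophils and mast cells summed to 108 to 227 CPM in septic and 72.8 to 77.3 CPM in control proNeu2, with 4 of 8 higher and 2 lower. The B lineage markers summed to 36.4 to 77.2 CPM in septic and 412 to 539 CPM in control proNeu2, with 4 of 7 lower, and the stem and progenitor markers to 159 to 175 CPM in septic and 396 to 473 CPM in control proNeu2, with 3 of 8 lower. The macrophage markers summed to 145 to 173 CPM in septic and 589 to 722 CPM in control proNeu2, with 1 of 8 lower. Mature neutrophil markers summed to 1644 to 2074 CPM in septic and 1300 to 1591 CPM in control proNeu2, with 0 of 12 higher and 1 lower. The part of these cells in the result was not tested.

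In septic preNeu, 4 genes were lower, where 7.57% of all genes were called higher and 4.21% lower. Ltf was at 15366, 9714 and 9336 CPM in septic and 44824, 44341 and 28742 CPM in control preNeu, 3.43-fold lower (log2 fold change -1.78 ± 0.43, adjusted p = 0.00538). Camp was at 1686, 1287 and 1576 CPM in septic and 5139, 6842 and 4583 CPM in control preNeu, 3.64-fold lower (log2 fold change -1.86 ± 0.38, adjusted p = 0.00126). The groups did not overlap in either gene. Ngp was at 16910.5, 13453 and 14318 CPM in septic and 53772, 37104 and 29586 CPM in control preNeu, also without overlap, and missed the threshold (log2 fold change -1.43 ± 0.48, adjusted p = 0.0504). It was called by DESeq2 (adjusted p = 0.0303) and without preNeu replicate 3 (adjusted p = 0.0386). Olfm4 was at 139.7, 100.1 and 98.9 CPM in septic and 349.6, 363 and 309.6 CPM in control preNeu (log2 fold change -1.59 ± 0.52, adjusted p = 0.0419). Itgb2l was at 692, 637 and 616 CPM in septic and 1831, 1485 and 1010.5 CPM in control preNeu (log2 fold change -1.15 ± 0.37, adjusted p = 0.0374). Both were called lower, with all septic libraries below all control libraries, but not by DESeq2 (adjusted p = 0.118 for Olfm4 and 0.151 for Itgb2l). The Olfm4 call was lost without preNeu replicate 1 (adjusted p = 0.129), preNeu replicate 2 (adjusted p = 0.109), preNeu replicate 3 (adjusted p = 0.0565), sepsis preNeu replicate 1 (adjusted p = 0.0757), sepsis preNeu replicate 2 (adjusted p = 0.159) or sepsis preNeu replicate 3 (adjusted p = 0.151), and that of Itgb2l without preNeu replicate 1 (adjusted p = 0.2), preNeu replicate 2 (adjusted p = 0.0892), sepsis preNeu replicate 1 (adjusted p = 0.0875), sepsis preNeu replicate 2 (adjusted p = 0.126) or sepsis preNeu replicate 3 (adjusted p = 0.125).

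The genes that were higher at the earlier stages were not called higher here. Lcn2 was at 3343, 2749.8 and 3524 CPM in septic and 1239, 3542 and 2701 CPM in control preNeu, where the control range spans the septic one (adjusted p = 0.496). Lrg1 was at 1887, 1945 and 1748 CPM in septic and 1714, 996 and 789 CPM in control preNeu, without overlap (0.67 ± 0.41, adjusted p = 0.336). Chil3 averaged 21565 ± 3521 CPM in septic and 24475 ± 8363 CPM in control preNeu, Cd177 6076 ± 519 CPM in septic and 9791 ± 3536 CPM in control preNeu, and Pglyrp1 269.5 ± 25.0 CPM in septic and 288 ± 21.6 CPM in control preNeu. Monocyte markers summed to 1967 to 2690.2 CPM in septic and 723 to 1612 CPM in control preNeu, with 6 of 10 higher. The B lineage markers summed to 36.4 to 74.6 CPM in septic and 349 to 1042 CPM in control preNeu, with 3 of 7 lower, and the stem and progenitor markers to 47.1 to 54.4 CPM in septic and 226 to 297 CPM in control preNeu, with 1 of 8 higher and 3 lower. Mature neutrophil markers summed to 6527 to 7103 CPM in septic and 6031 to 14245 CPM in control preNeu. Among these Ly6g, a surface protein of mature neutrophils, was at 7.80 to 10.7 CPM in septic and 61.2 to 109.6 CPM in control preNeu (log2 fold change -3.06 ± 0.98, adjusted p = 0.0401), and Mmp8, neutrophil collagenase, was at 335 ± 192 CPM in septic and 30.0 ± 9.26 CPM in control preNeu (log2 fold change 3.47 ± 0.67, adjusted p = 0.000655). The part of these markers' cells in the result was not tested.

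**Figure D2:**
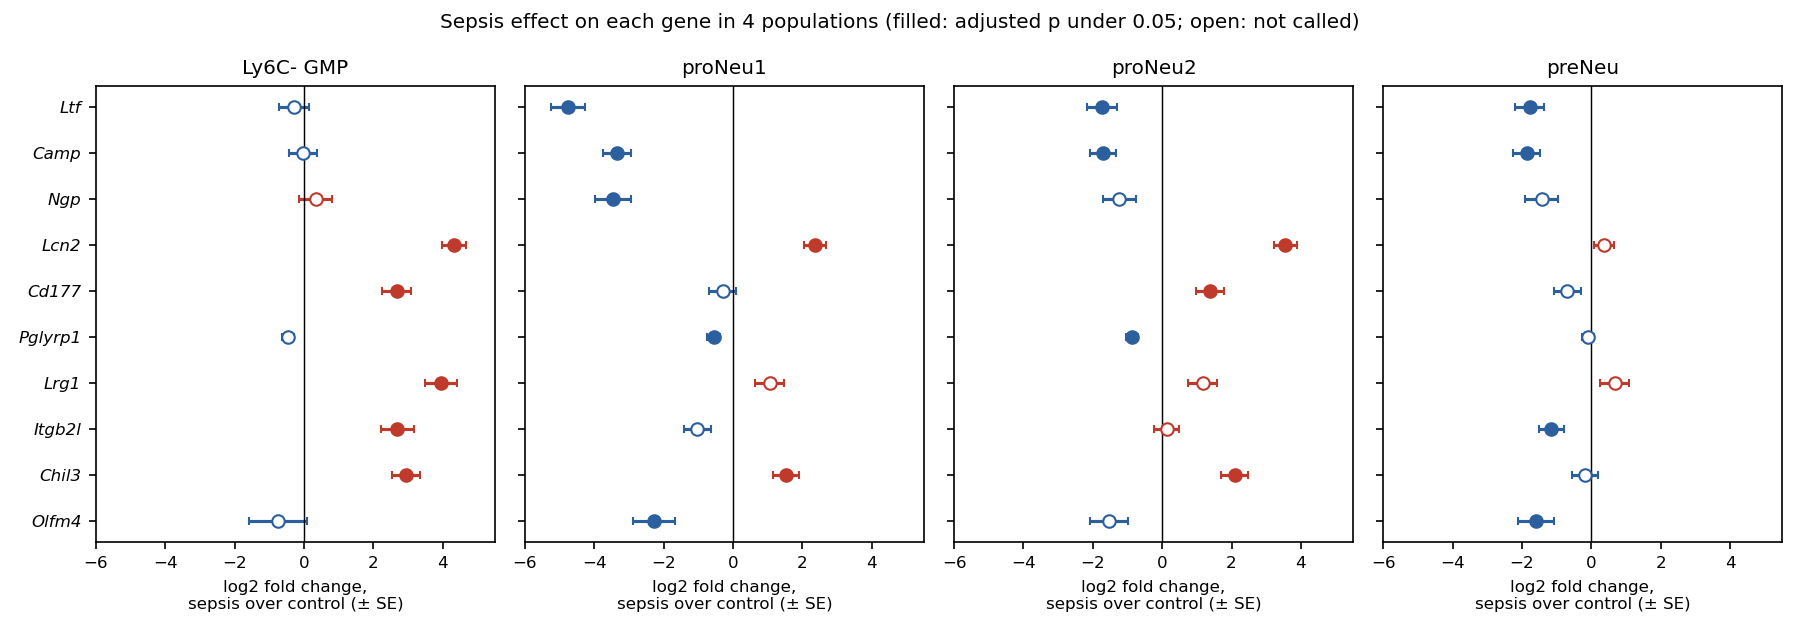
Log2 fold change of each gene in septic over control cells, with its standard error, in the 4 populations. Filled points are called at an adjusted p under 0.05. Lcn2 lies to the right of 0 in the first 3 populations, at 4.31, 2.36 and 3.55, and at 0.36 in preNeu. Ltf lies at -0.28 in Ly6C- GMP, at -4.76 in proNeu1, at -1.74 in proNeu2 and at -1.78 in preNeu.

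The sepsis effect itself was then compared between populations. In a test over all 4 populations, the effect differed for 8 of the 10 genes, against 6.34% of all tested genes. The adjusted p was 3.12e-06 for Lcn2, 0.000184 for Ltf, 0.000315 for Itgb2l and 0.000592 for Cd177. It was 0.00213 for Lrg1, 0.00242 for Chil3, 0.00295 for Camp and 0.00534 for Ngp, and Pglyrp1 (0.247) and Olfm4 (0.803) were not called. Between Ly6C- GMP and proNeu1, the effect was lower in proNeu1 for 7 genes, against 0.209% of all genes with a lower and 0.236% with a higher effect. The differences on the log2 scale were -4.48 ± 0.63 for Ltf, -3.80 ± 0.69 for Ngp, -3.72 ± 0.61 for Itgb2l, -3.31 ± 0.57 for Camp and -2.98 ± 0.57 for Cd177. Those of Lrg1 (-2.89 ± 0.60, adjusted p = 0.0184) and Lcn2 (-1.95 ± 0.44, adjusted p = 0.0363) were called less firmly. The Lcn2 call was lost in 9 of 12 leave-one-out fits (adjusted p = 0.0517 to 0.131), and that of Lrg1 in 8 of 12 (adjusted p = 0.0507 to 0.0876). Without the 5 shallow libraries, 2 of the 7 were called, Ltf and Itgb2l.

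From proNeu1 to proNeu2 the effect on Ltf was higher by 3.02 ± 0.60 (adjusted p = 0.0155), where 0.143% of all genes had a higher and 0.28% a lower effect. This call was lost without proNeu1 replicate 1 (adjusted p = 0.0686), proNeu2 replicate 2 (adjusted p = 0.0633), proNeu2 replicate 3 (adjusted p = 0.065) or sepsis proNeu1 replicate 1 (adjusted p = 0.0593). From proNeu2 to preNeu the effect was lower for Lcn2 (-3.19 ± 0.43, adjusted p = 6.4e-05), Chil3 (-2.28 ± 0.53, 0.0134) and Cd177 (-2.07 ± 0.55, 0.0313), where 1.92% of all genes had a higher and 1.64% a lower effect. The Chil3 call was lost without preNeu replicate 2 (adjusted p = 0.067) or sepsis proNeu2 replicate 2 (adjusted p = 0.0608). That of Cd177 was lost when any 1 of 10 of the 12 libraries was left out, with an adjusted p of 0.0556 to 0.0898.

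The same steps were tested within septic mice. In septic proNeu1 against septic Ly6C- GMP, 4 genes were higher, where 0.83% of all genes were called higher and 0.456% lower. Chil3 rose by 2.95 ± 0.40, Cd177 by 1.99 ± 0.40, Itgb2l by 1.62 ± 0.39 and Pglyrp1 by 0.82 ± 0.18 on the log2 scale (adjusted p = 4.55e-05, 0.00592, 0.0305 and 0.0156). The Cd177 call was lost without sepsis Ly6C- GMP replicate 1 (adjusted p = 0.0779) or sepsis proNeu1 replicate 2 (adjusted p = 0.0929), and that of Pglyrp1 without sepsis Ly6C- GMP replicate 1 (adjusted p = 0.188) or sepsis proNeu1 replicate 2 (adjusted p = 0.291). That of Itgb2l was lost in 5 of 6 leave-one-out fits, with an adjusted p of 0.051 to 0.241. Ltf averaged 34.3 ± 5.55 CPM in septic proNeu1 and 18.0 ± 7.76 CPM in septic Ly6C- GMP (log2 difference 0.94 ± 0.43, adjusted p = 0.448), beside 5.42 ± 0.50 for the same step in control mice.

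In septic proNeu2 against septic proNeu1, 6 genes were higher, where 0.423% of all genes were called higher and 0.297% lower. The log2 fold changes were 2.35 ± 0.40 for Camp, 2.34 ± 0.50 for Ngp, 2.03 ± 0.39 for Itgb2l, 1.88 ± 0.44 for Ltf, 1.67 ± 0.40 for Cd177 and 0.81 ± 0.18 for Pglyrp1. In control mice the same step had 0.70 ± 0.37 for Camp, 0.12 ± 0.47 for Ngp and -1.15 ± 0.42 for Ltf. Without the shallow sepsis proNeu1 replicate 1, 0 of the 10 were called by edgeR (8 at an unadjusted p under 0.05), and without all 5 shallow libraries again 0 (9 unadjusted), whereas DESeq2 on all libraries called 6. Camp then had adjusted p-values of 0.0522 and 0.0591. Over the 6 leave-one-out fits, the call of Ltf was lost in 5, those of Ngp, Cd177 and Pglyrp1 in 4 each and that of Itgb2l in 2, with adjusted p-values up to 0.296. In septic preNeu against septic proNeu2, all 10 genes were higher, where 8.51% of all genes were called higher and 8.38% lower. Ltf rose by 6.50 ± 0.53 in septic mice, beside 6.54 ± 0.53 in control mice. Lcn2 rose by 3.48 ± 0.32 in septic mice, beside 6.67 ± 0.38 in control mice.

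**Figure D3:**
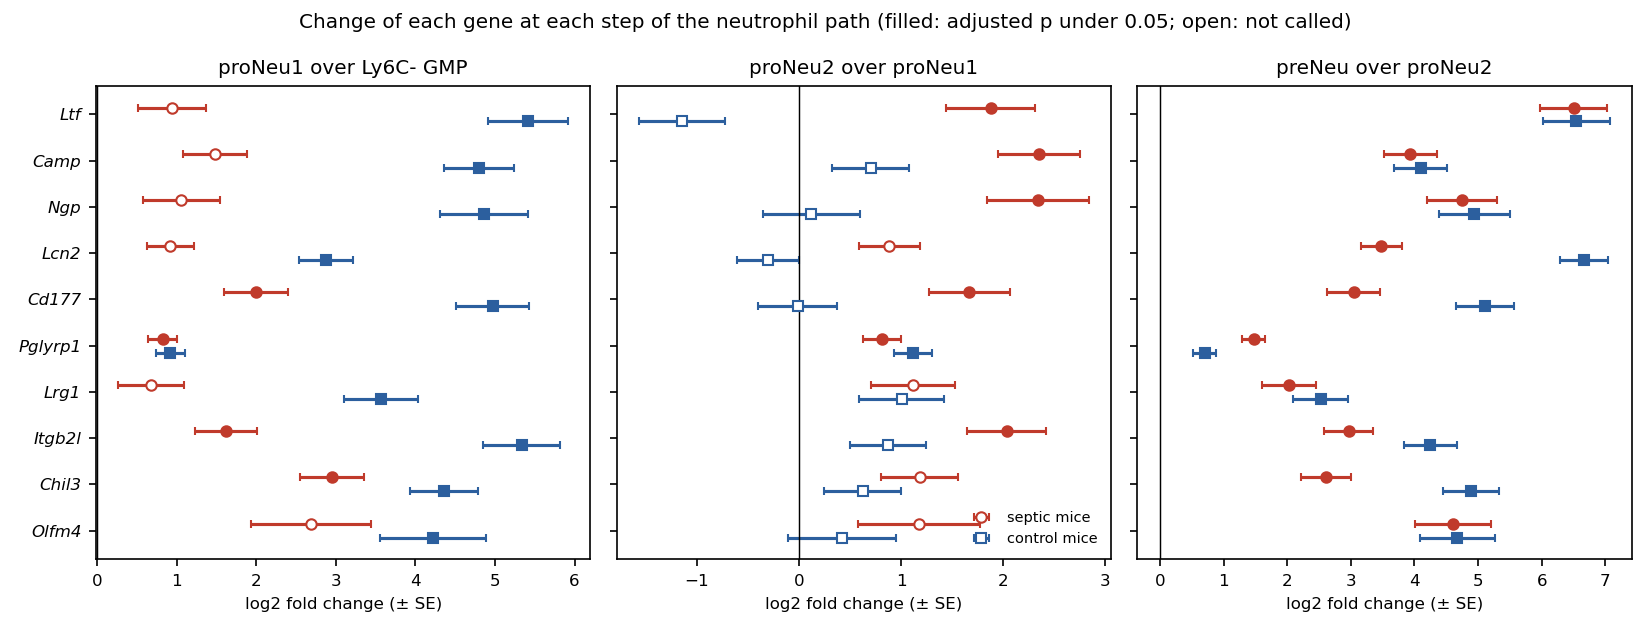
Log2 fold change of each gene, with its standard error, at the 3 steps of the neutrophil path in septic (red circles) and control mice (blue squares), filled where called. At the first step the septic points of Ltf, Camp and Ngp lie at 0.94, 1.48 and 1.06 and the control points at 5.42, 4.80 and 4.86. At the last step Ltf lies at 6.50 in septic and 6.54 in control mice, and Lcn2 is 3.48 in septic and 6.67 in control mice.

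The make-up of the pool changed with these shifts. Counted as each gene's share of the summed CPM per kb of the 10 genes, Ngp held 6.42 ± 1.42% in septic and 46.6 ± 3.72% in control proNeu1 (mean ± SD, n = 3). Chil3 held 66.4 ± 5.95% in septic and 16.0 ± 5.16% in control proNeu1, and Lrg1 11.4 ± 2.50% in septic and 3.54 ± 0.786% in control proNeu1. In proNeu2, Chil3 held 60.1 ± 5.45% in septic and 20.4 ± 1.30% in control cells. In preNeu the shift was smaller, with Chil3 at 37.0 ± 5.19% in septic and 20.9 ± 5.94% in control cells, and Ltf at 9.21 ± 1.90% in septic and 15.7 ± 0.546% in control cells. On the monocyte path Chil3 held 86.1 ± 3.04% in cMoP, 95.7 ± 1.01% in TpMo and 89.8 ± 0.767% in the Ly6Chi monocytes.

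Lcn2 was also set against Ltf as a ratio. This pair was chosen with earlier results of these data known. The ratio restates levels from the same libraries and is not a separate test. In septic proNeu1 and proNeu2, Lcn2 was called higher and Ltf lower. In septic Ly6C- GMP only Lcn2 of the pair was called, and in septic preNeu only Ltf. Per 100 Ltf counts per kb, there were 739.6, 414 and 816 Lcn2 counts per kb in septic and 21.0, 37.4 and 19.3 in control Ly6C- GMP. The ratio was 616, 643 and 536 in septic and 3.85, 5.01 and 4.50 in control proNeu1, and 219, 332 and 346 in septic and 7.42, 9.94 and 6.11 in control proNeu2. In preNeu it was 28.6, 37.2 and 49.7 in septic and 3.63, 10.5 and 12.4 in control cells. The septic libraries were above the control libraries at all 4 stages.

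**Figure D4:**
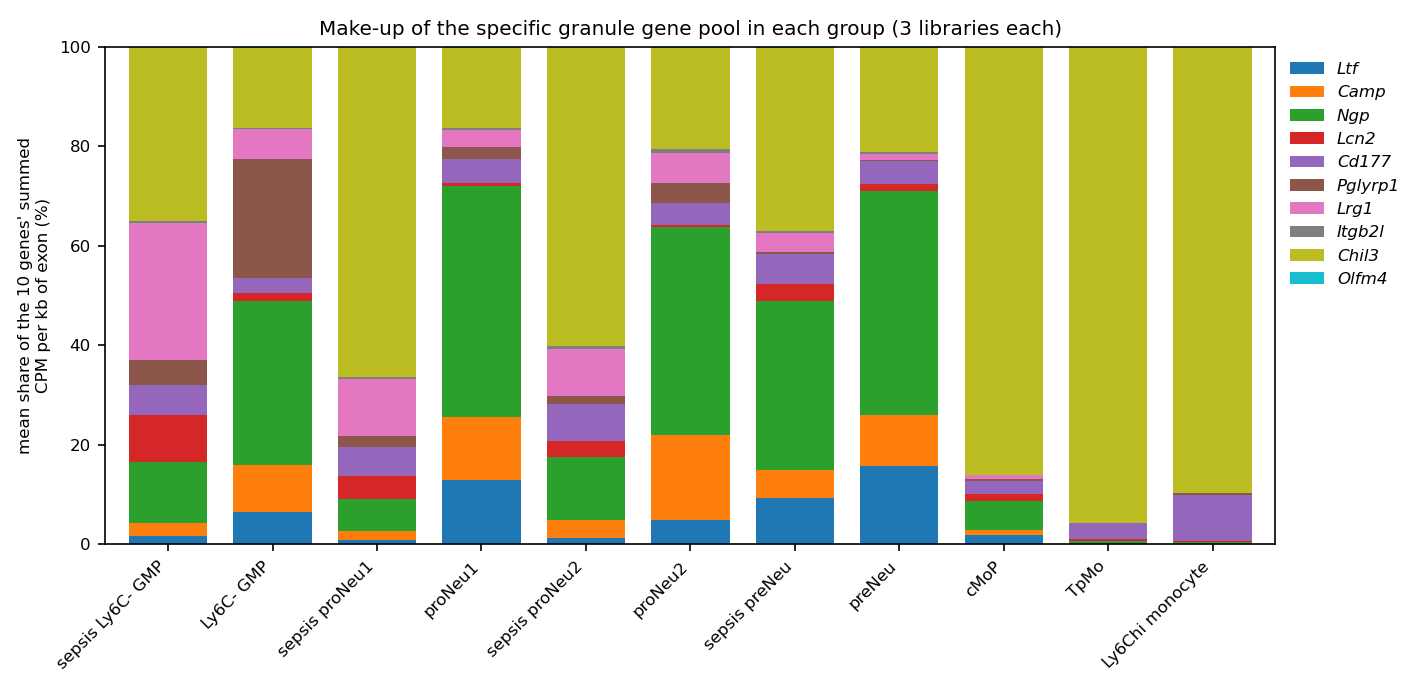
Mean share of each gene in the summed CPM per kb of exon of the 10 genes, for each of the 11 groups of 3 libraries. Chil3 takes 66.4% in sepsis proNeu1 and 16.0% in control proNeu1, and 86.1% to 95.7% in the monocyte-path groups. Ngp takes 34.1% in sepsis preNeu and 45.1% in control preNeu.

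Other granule genes were read in sepsis too. Of the 27 tested genes of other granule proteins, 6 were higher and 1 lower in septic Ly6C- GMP, 4 higher and 10 lower in proNeu1, 6 higher and 4 lower in proNeu2, and 2 higher and 3 lower in preNeu. The shares of all tested genes called higher and lower were 10.3% and 7.42% in Ly6C- GMP, 8.3% and 7.3% in proNeu1, 9.45% and 7.57% in proNeu2, and 7.57% and 4.21% in preNeu. Lyz2, which encodes lysozyme, was lower at all 4 stages, for example at 177 ± 30.4 CPM in septic and 767 ± 251 CPM in control proNeu1 (log2 fold change -2.11 ± 0.24, adjusted p = 5.68e-07). Hp, haptoglobin, was at 1256 ± 126 CPM in septic and 779.5 ± 36.6 CPM in control proNeu1 (log2 fold change 0.69 ± 0.11, adjusted p = 6.75e-05). Mmp8 was at 2.01 ± 1.63 CPM in septic and 23.7 ± 24.9 CPM in control proNeu1 (log2 fold change -3.32 ± 0.75, adjusted p = 0.00251), the opposite direction to preNeu. The SD of its control libraries exceeded their mean, and no leave-one-out fit was read for it. Of the 10 tested genes of the azurophil list, 3 were higher and 2 lower in septic Ly6C- GMP, 2 higher and 3 lower in proNeu1, 4 higher and 2 lower in proNeu2, and 6 higher and 0 lower in preNeu. In proNeu1 their median log2 fold change was 0.06. Of the 2 called higher in proNeu1, 1 was Lamp1, which this list includes but which encodes a lysosomal membrane protein and not a granule protease. It was at 649 ± 11.1 CPM in septic and 53.6 ± 1.60 CPM in control proNeu1 (log2 fold change 3.60 ± 0.69, adjusted p = 0.000538). Mpo was at 24334 ± 1556 CPM in septic and 55698 ± 2849.9 CPM in control proNeu1 (log2 fold change -1.19 ± 0.15, adjusted p = 3.91e-06), and Elane, neutrophil elastase, at 5807 ± 684 CPM in septic and 17058 ± 394 CPM in control proNeu1 (log2 fold change -1.55 ± 0.22, adjusted p = 1.87e-05).

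Of the transcription factors, Cebpe, which encodes C/EBP epsilon, was at 59.4 ± 40.3 CPM in septic and 195 ± 32.7 CPM in control Ly6C- GMP (log2 fold change -1.71 ± 0.43, adjusted p = 0.00555). In proNeu2 Cebpe was at 87.2 ± 50.4 CPM in septic and 492 ± 39.2 CPM in control cells (log2 fold change -2.49 ± 0.44, adjusted p = 0.000182). In proNeu1 it was at 129 ± 22.6 CPM in septic and 238 ± 40.8 CPM in control cells (adjusted p = 0.169), and in preNeu at 339.9 ± 83.8 CPM in septic and 768 ± 392 CPM in control cells (adjusted p = 0.0723). Cebpb, the C/EBP factor of emergency granulopoiesis, was called higher in septic Ly6C- GMP (adjusted p = 0.0395) and in septic proNeu1, at 27.3 ± 5.70 CPM against 0.0639 ± 0.0601 CPM in control proNeu1 (adjusted p = 0.00835). This control mean lies below the level of 3 counts, 0.0715 to 0.411 CPM in these libraries, so no fold is given. In septic proNeu2 and in septic preNeu, 0 transcription factors of the list were called higher. Gfi1 was at 75.9 ± 18.0 CPM in septic and 38.6 ± 3.18 CPM in control proNeu1 (log2 fold change 0.98 ± 0.28, adjusted p = 0.0163).

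Across the 11 group means of log2(CPM + 1), the 10 genes differed in how alike they were. These correlations describe 11 group means from 1 kind of preparation and carry no p. Camp and Ngp were most alike (Pearson r = 0.996). Ltf was most like Olfm4 (0.989), and Itgb2l was most like Ngp (0.978). Cd177 was most like Chil3 (0.935), the other gene with high levels in monocytes. Chil3 was least like the rest, with a mean r of 0.575 and its lowest r, 0.328, with Pglyrp1. Among 8368 other genes at 20 CPM or more in some group, the 10 closest to the mean profile of the granule genes were Ankrd22 (0.988), Gpr137c (0.986), Chil1 (0.984), Glyr1 (0.982), Inhba (0.981), S100a9 (0.979), Ano10 (0.978), Mark2 (0.975), Dgat1 (0.974) and Adpgk (0.974). Adpgk, an ADP-dependent glucokinase, averaged 1641 CPM in septic and 3488 CPM in control preNeu. Chil1 averaged 599 CPM in septic and 1331 CPM in control preNeu, and S100a9, a subunit of calprotectin, 2058 CPM in septic and 3011 CPM in control preNeu. All 3 were far lower in Ly6Chi monocytes, at 83.5, 0.433 and 3.74 CPM.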

How the data were processed

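Bulk RNA sequencing measured 33 libraries of sorted mouse bone marrow cells in 11 groups of 3, made with SMART-Seq v2 and sequenced in pairs, per the labels' protocols. The deposited table holds counts per gene, which the authors made with STAR and featureCounts on GRCm38, per the submitters' processing notes. Versions, strand, the treatment of reads with several matches and the counting of mates are not given in the sources used here. Of the counts from 1 to 10, 76.2% were even, so the table was also tested with counts halved.

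The counts as deposited were filtered with filterByExpr, which kept 18198 of 54752 features, scaled by TMM and fitted over all 33 libraries by edgeR 4.0.16 (R 4.3.3, robust quasi-likelihood), with 1 coefficient per group. P-values were adjusted by Benjamini-Hochberg over all tested genes in each of the 14 comparisons between groups and 4 tests of differences between sepsis effects, and a call is an adjusted p under 0.05. Errors of log2 fold changes are standard errors, computed from the log2 fold change and the F statistic of its test. The procedure was tested on simulated data. Samples were grouped by their labels, and replicate numbers follow accession order. The labels call the 3 libraries of a group biological replicates. The p-values rest on the spread between replicates estimated over all groups in the 1 fit, with information shared across genes. They do not measure the spread of the 2 compared groups alone. The alternatives were DESeq2 1.42.0, other scaling, other filters, a tested fold change of 1.5, halved counts, only the libraries compared, no shallow libraries, and each library left out. Depth was 5.52 to 40 megacounts, which limits genes of a few counts most. Promoters came from RefSeq tables, which matched 10 of 10 genes by symbol. The RefSeq start lay 16221 bases from the start of the counted gene record for Olfm4, 13359 for Pglyrp1 and 513 for Lcn2. For the other genes it lay at most 161 bases away.

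The genes and the lists read beside them were chosen with earlier results of these data known. The rule for named genes was all 10 members, and, from each other list and comparison, up to 2 called genes with the largest rise and 2 with the largest fall among genes whose higher group reached 20 CPM, and any transcription factor of the list. Ptx3 was at 0 and Azu1 was not used here.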

Additional observations from a re-analysis of the deposited data

Results flagged for a closer look

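The sepsis effect differed between populations by a test of the difference itself for these genes (edgeR quasi-likelihood test, adjusted over all genes). Between proNeu1 and Ly6C- GMP, the effect in proNeu1 minus that in Ly6C- GMP was -4.48 for Ltf, -3.31 for Camp, -3.80 for Ngp, -1.95 for Lcn2, -2.98 for Cd177, -2.89 for Lrg1 and -3.72 for Itgb2l on the log2 scale. Between proNeu2 and proNeu1, the effect in proNeu2 minus that in proNeu1 was 3.02 for Ltf. Between preNeu and proNeu2, the effect in preNeu minus that in proNeu2 was -3.19 for Lcn2, -2.07 for Cd177 and -2.28 for Chil3. Over all 4 populations together, the adjusted p of the difference was 0.000184 for Ltf, 0.00295 for Camp, 0.00534 for Ngp, 3.12e-06 for Lcn2, 0.000592 for Cd177, 0.00213 for Lrg1, 0.000315 for Itgb2l and 0.00242 for Chil3. Neighbouring differences share the libraries of the population between them. In leave-one-out fits the call between proNeu1 and Ly6C- GMP was lost in 9 of 12 for Lcn2 and 8 of 12 for Lrg1. The Ltf call between proNeu2 and proNeu1 was lost in 4 of 12. Those between preNeu and proNeu2 were lost in 10 of 12 for Cd177 and 2 of 12 for Chil3.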

How the results depend on the processing

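No paired analysis was possible because the labels give library numbers that no 2 groups share. Of 2826 values of single genes under an alternative, 2623 stayed on their side of the threshold, of which 62 changed sign without being called in either fit (at most 1.52 in log2 size), 168 were no longer called, 35 became called, and 0 of the called values changed sign. With a tested fold change of 1.5, the genes called were 0 in proNeu2 against proNeu1 (1 in the reported fit), 3 in cMoP against Ly6C- GMP (6), 3 in TpMo against cMoP (5), 2 in septic against control preNeu (4), 1 in septic proNeu1 against septic Ly6C- GMP (4), 1 in septic proNeu2 against septic proNeu1 (6), 0 for the difference of effects between proNeu2 and proNeu1 (1) and 1 for that between preNeu and proNeu2 (3). With only the libraries compared, 2 were called in proNeu2 against proNeu1. With no filter, 3 were called in cMoP against Ly6C- GMP, 2 in septic preNeu, 3 in septic proNeu2 against septic proNeu1 and 0 for the difference between proNeu2 and proNeu1. Without the 5 shallow libraries, 2 were called in septic preNeu, 0 in septic proNeu2 against septic proNeu1, 2 of 7 for the difference between proNeu1 and Ly6C- GMP and 0 for that between proNeu2 and proNeu1. For the counts of 0, all by edgeR, the genes at an unadjusted p under 0.05 were 2 in proNeu2 against proNeu1 and 9 in septic proNeu2 against septic proNeu1. For the difference between proNeu2 and proNeu1 they were 5 with the tested fold, 5 with no filter and 2 without the shallow libraries. DESeq2 on all libraries called 1, 6 and 1. The cause was not tested.

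With each library left out in turn, the genes called ranged from 10 to 10 for proNeu1 against Ly6C- GMP, 1 to 1 for proNeu2 against proNeu1, 10 to 10 for preNeu against proNeu2, 3 to 6 for cMoP against Ly6C- GMP, 4 to 5 for TpMo against cMoP, 3 to 3 for Ly6Chi monocytes against TpMo and 9 to 9 for proNeu1 against cMoP. For sepsis against control they were 5 to 5 in Ly6C- GMP, 6 to 6 in proNeu1, 5 to 6 in proNeu2 and 2 to 4 in preNeu. Along the septic path they were 1 to 5, 0 to 6 and 10 to 10. For the differences of effects they were 5 to 7, 0 to 1, 1 to 3 and, over all 4 populations, 8 to 8.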
